A study of Mus musculus with 4 samples.

Results

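The feedback genes described here are 10: the dual specificity MAPK phosphatases Dusp1, Dusp2, Dusp4, Dusp5 and Dusp6, the Sprouty genes Spry2 and Spry4, and the mRNA decay genes Zfp36, Zfp36l1 and Zfp36l2. They were found by gene name among the non-control probes, where these 10 genes have 14 of the 56605 probes. Of the 10, 9 (all but Spry4) passed the filter for signal, among 23520 named features. The arrays measured total RNA of cells taken from tumours of 4T1, a mouse mammary carcinoma line, grown in untreated BALB/C mice. The cells were sorted with the ALDEFLUOR reaction, which marks cells by aldehyde dehydrogenase (ALDH) activity. Leukocyte and red cell markers, given below, were also well above background, so no value can be assigned to carcinoma cells alone. The groups were ALDH-high and ALDH-low cells at ZT0, and ALDH-high and ALDH-low cells at ZT12, where ZT is hours after lights on. Each group was 1 sample on 1 one-colour array. No source used here gives the number of mice behind a sample, and with 1 array per group no difference has a replicate check. All values below are log2 differences or log2 levels, where a level is the processed signal of a probe relative to the 75th percentile of its array. Levels of different probes cannot be set against each other.

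These genes are negative feedback genes. Mitogen, stress and cytokine signals pass through the ERK, p38 and JNK kinases to transcription factors that switch on, within a short time, the phosphatases that take the phosphate off the same kinases. Sprouty proteins act upstream, between receptor tyrosine kinases and Ras. ZFP36 proteins bind AU-rich elements in short-lived mRNAs and recruit the CCR4-NOT complex, which shortens the poly(A) tail. In tumours these genes are expressed both by carcinoma cells and by infiltrating myeloid cells.

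Across all 19299 features detected on every array, arrays at the same position of the 2 slides were the most alike. The ZT0 ALDH-high and ZT12 ALDH-low arrays (position 1_2) correlated at r = 0.967, and the ZT12 ALDH-high and ZT0 ALDH-low arrays (position 1_1) at r = 0.983. Arrays of the same ALDH arm correlated at 0.859 (ALDH-high) and 0.872 (ALDH-low), and arrays of the same time at 0.857 (ZT12) and 0.858 (ZT0). These correlations are descriptions over features of shared arrays. Slide 1 held the ZT0 and slide 2 the ZT12 arrays, which means that slide and time cannot be told apart, and neither can array position and an ALDH difference that turns round between the times. An exchange of the 2 sample labels on 1 slide would give the same likeness and would turn the sign of that slide's ALDH differences. It was not tested, the files used here do not settle it, and every arm and time below is as labelled. The spike-in slope was 0.956 and 0.944 at position 1_2, against 0.873 and 0.789 at position 1_1. No non-control spot was saturated (0 of 59305 on each array), and between 55.8% and 60.6% of spots were well above background. The scanner software's quality result was ExtractionInRange for both position 1_2 arrays and ExtractionEvaluate for both position 1_1 arrays. The 75th percentile of processed signal was 301 (ZT0 ALDH-high) and 459 (ZT12 ALDH-low) at position 1_2. At position 1_1 it was 214 (ZT0 ALDH-low) and 156 (ZT12 ALDH-high). The epithelial markers expected of a carcinoma line were lowest on the ZT0 ALDH-high array: Krt8 had levels of 1.61 (ALDH-high) and 5.68 (ALDH-low) at ZT0, and 4.36 (ALDH-high) and 4.28 (ALDH-low) at ZT12. Epcam had -3.45 (ALDH-high) and 0.11 (ALDH-low) at ZT0, and -0.61 (ALDH-high) and -1.69 (ALDH-low) at ZT12. Neutrophil markers were well above background on each array, some at similar levels throughout (S100a8, 8.60 to 9.22) and others, such as Ly6g, higher on the position 1_2 arrays.

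Among the nuclear phosphatases, Dusp1 and Dusp5 were far brighter on the ZT0 ALDH-high and ZT12 ALDH-low arrays than on the others, Dusp2 followed with a smaller span, and Dusp4 did not. Dusp1 (MKP-1) removes phosphate from p38, JNK and ERK, and its probe lies at chr17:26642624-26642683 (mm9, minus strand). At ZT0 its level was 7.78 in ALDH-high and 4.27 in ALDH-low cells, an 11.4-fold higher signal in ALDH-high cells. At ZT12 it was 4.96 in ALDH-high and 7.74 in ALDH-low cells, a 6.88-fold lower signal in ALDH-high cells. Dusp5, an ERK-selective phosphatase (probe at chr19:53616779-53616838, plus strand), had levels of 4.63 in ALDH-high and 2.03 in ALDH-low cells at ZT0, and of 2.55 in ALDH-high and 4.42 in ALDH-low cells at ZT12. The ALDH-high signal of Dusp5 was thus 6.08-fold higher at ZT0 and 3.67-fold lower at ZT12. Its dimmer second probe gave 11.4-fold and 5.01-fold in the same directions. In these bulk samples, fewer cells of a type and less RNA per cell cannot be told apart.

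Dusp2 (PAC-1), a phosphatase best known from activated leukocytes (probe at chr2:127163930-127163989, plus strand), had levels of 3.57 in ALDH-high and 2.76 in ALDH-low cells at ZT0, and of 2.95 in ALDH-high and 3.86 in ALDH-low cells at ZT12. Neither difference reached 2-fold (1.75-fold higher and 1.87-fold lower in ALDH-high cells). Under median scaling both did, with log2 differences of 1.29 at ZT0 and -1.78 at ZT12. Dusp4 (MKP-2, probe at chr8:35884806-35884865, plus strand) was low on a single array. Its levels were -2.12 in ALDH-high and 0.39 in ALDH-low cells at ZT0, and -0.072 in ALDH-high and 0.68 in ALDH-low cells at ZT12. The ALDH-high signal was 5.69-fold lower at ZT0 and 1.68-fold lower at ZT12, so Dusp4 was the 1 member at least 2-fold lower in ALDH-high cells at ZT0. Both Dusp4 probes showed the low ZT0 ALDH-high signal (the second gave 4.54-fold), while the second probe differed by 1.05-fold at ZT12. Dusp6 (MKP-3), the cytoplasmic phosphatase of ERK (probe at chr10:98729985-98730044, plus strand), varied the least. It had levels of 4.44 in ALDH-high and 4.48 in ALDH-low cells at ZT0, and of 4.63 in ALDH-high and 4.98 in ALDH-low cells at ZT12, a span of 1.46-fold over the 4 arrays. The sign and size of its differences depended on the scaling. Under median scaling the ZT0 ALDH difference of -0.047 was 0.44, and the ZT12 minus ZT0 difference in ALDH-high cells of 0.19 was -0.34. The ZT12 ALDH difference was then -1.22 and the ZT12 minus ZT0 difference in ALDH-low cells 1.32, both past 2-fold.

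**Figure D1:**
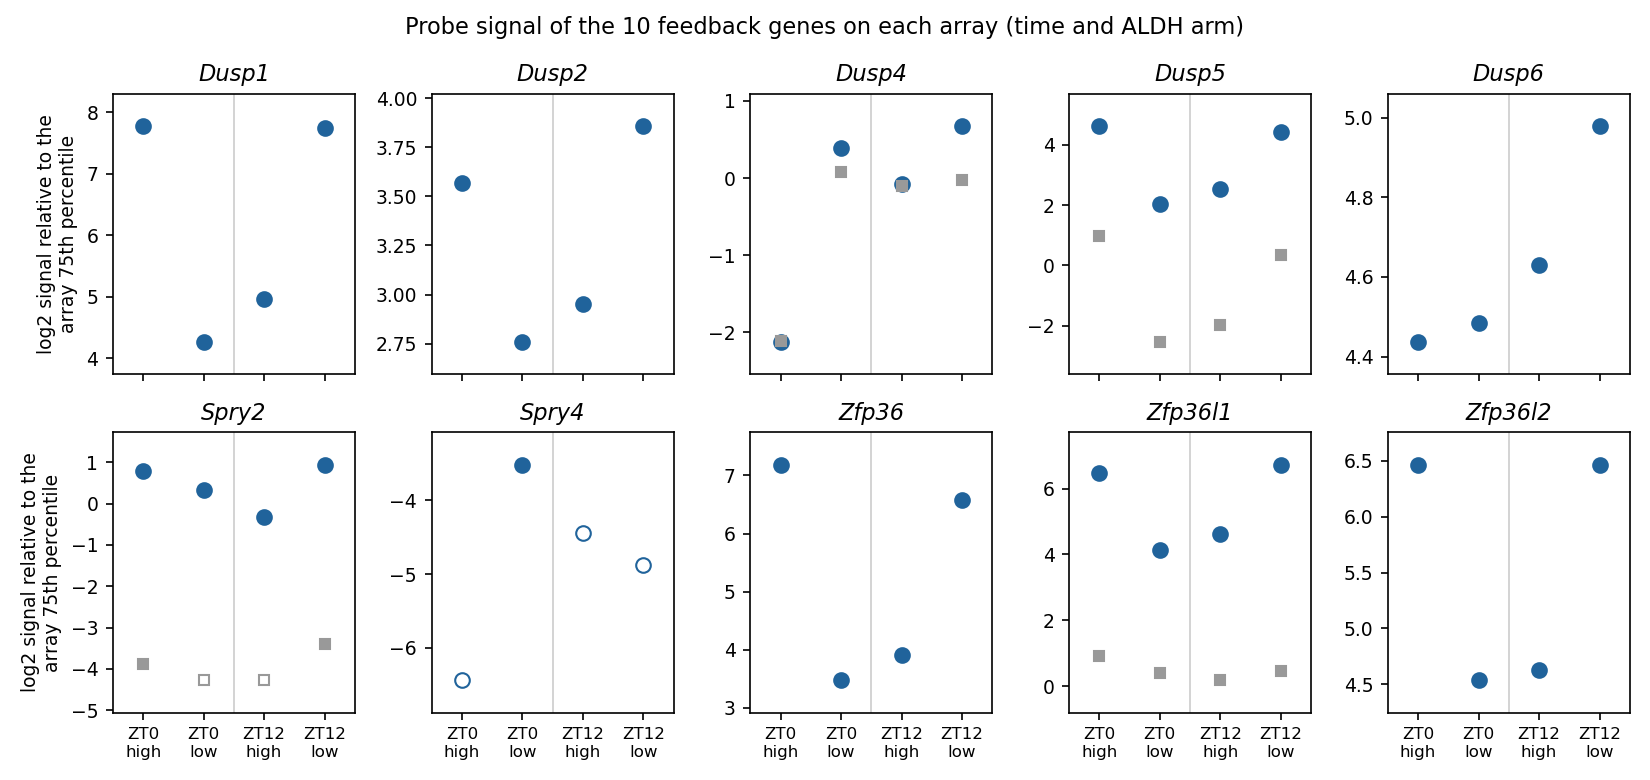
Log2 signal relative to the array's 75th percentile (vertical axis, scaled separately for each gene) on the 4 arrays (horizontal axis), 1 point per array. Circles are the probe that stands for a gene, grey squares its other probe, and open symbols are not well above background. Dusp1, Dusp5 and the 3 Zfp36 genes are high on the ZT0 ALDH-high and ZT12 ALDH-low arrays, Dusp4 is low on the ZT0 ALDH-high array (-2.12), and Dusp6 spans 1.46-fold.

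The promoters of these genes are shown to let the sequence be read beside the signals. Of the 10 genes, 7 have an entry in the RefSeq promoter table (build GRCm38.p6); Dusp4, Spry4 and Zfp36l2 do not. Each window is the 250 bases before the annotated start, read 5′ to 3′ on the strand of the gene. Capitals mark CArG boxes (the site of serum response factor), the CRE core TGACG (the site of CREB family factors) and TATAAA on either strand. The genes printed are the 3 with the widest span of signal and a promoter entry among phosphatases and Zfp36 genes, and Dusp6 as the one with the narrowest. Dusp1 lies at chr17:26508473-26508722 (minus strand), Dusp5 at chr19:53528895-53529144 (plus strand), Zfp36 at chr7:28379229-28379478 (minus strand) and Dusp6 at chr10:99262981-99263230 (plus strand).
Dusp1: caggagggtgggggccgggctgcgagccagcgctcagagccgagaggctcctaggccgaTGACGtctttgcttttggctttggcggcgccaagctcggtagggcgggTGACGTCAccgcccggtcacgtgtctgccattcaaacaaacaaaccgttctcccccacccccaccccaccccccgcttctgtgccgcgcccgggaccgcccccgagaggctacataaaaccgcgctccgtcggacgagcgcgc
Dusp5: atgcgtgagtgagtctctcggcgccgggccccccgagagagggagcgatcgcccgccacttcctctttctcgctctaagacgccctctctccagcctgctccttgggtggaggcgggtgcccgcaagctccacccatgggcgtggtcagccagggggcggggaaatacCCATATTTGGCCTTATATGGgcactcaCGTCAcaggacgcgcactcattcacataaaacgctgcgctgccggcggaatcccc
Zfp36: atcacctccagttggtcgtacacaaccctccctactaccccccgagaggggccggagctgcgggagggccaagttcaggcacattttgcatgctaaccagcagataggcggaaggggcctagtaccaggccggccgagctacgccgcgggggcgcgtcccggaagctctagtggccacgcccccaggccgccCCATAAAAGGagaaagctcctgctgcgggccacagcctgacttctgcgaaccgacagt
Dusp6: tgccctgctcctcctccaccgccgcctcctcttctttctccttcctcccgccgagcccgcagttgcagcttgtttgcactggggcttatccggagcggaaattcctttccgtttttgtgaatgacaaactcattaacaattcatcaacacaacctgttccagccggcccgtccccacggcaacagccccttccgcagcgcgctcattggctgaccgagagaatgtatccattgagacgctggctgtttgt

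A full CRE (TGACGTCA) was found in Dusp1 alone of the 7 promoters and in 1.55% of the 32851 windows of the table. It holds the core TGACG on both strands, and Dusp1 has 1 further core. The core was found in 2 of 7 (Dusp1 and Dusp5), against 17.8% of all windows. CArG boxes were found in 2 of 7 (Dusp5, with 2 adjoining boxes, and Zfp36), against 1.47%. The EGR motif GCGGGGGCG was in 2 of 7 (Dusp2 and Zfp36), against 2.57%, and the AP-1 motif TGANTCA in 1 of 7 (Zfp36l1), against 6.75%. TATAAA was in 1 of 7 (Zfp36l1), against 12.4%, and the ETS core GGAA in 6 of 7 (all but Dusp1), against 93.4%. Of these motifs the Dusp6 window held the ETS core alone. All motifs were searched on both strands. A match describes letters in the window and is not a measured binding site.

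Of the Sprouty genes, Spry2 spanned 2.42-fold over the 4 arrays and Spry4 was near background. Spry2, an inhibitor of receptor tyrosine kinase signalling to ERK (probe at chr14:106291385-106291444, minus strand), had levels of 0.79 in ALDH-high and 0.32 in ALDH-low cells at ZT0, and of -0.33 in ALDH-high and 0.95 in ALDH-low cells at ZT12. The ALDH-high signal was 1.39-fold higher at ZT0 and 2.42-fold lower at ZT12. A second Spry2 probe was well above background on the arrays of position 1_2 alone. Spry4, a second inhibitor of the same step, was well above background on the ZT0 ALDH-low array alone (level -3.51). It was at least 1.97-fold lower in ALDH-high cells at ZT0, with measured levels of -6.44 in ALDH-high and -3.51 in ALDH-low cells. It has no fold at ZT12, where both arrays were not well above background. In each bound the dim array enters with its lowest signal well above background, or with the signal of the probe where that is larger.

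The 3 Zfp36 family genes were high on the same arrays as Dusp1. Zfp36 encodes tristetraprolin, which promotes decay of cytokine mRNAs such as that of TNF, and its probe lies at chr7:29161963-29162022 (minus strand). Its level at ZT0 was 7.19 in ALDH-high and 3.47 in ALDH-low cells, a 13.1-fold higher signal in ALDH-high cells. At ZT12 its level was 3.91 in ALDH-high and 6.58 in ALDH-low cells, a 6.36-fold lower signal in ALDH-high cells. The span of 13.1-fold over the 4 arrays was the widest of the 9 genes that passed the filter. Zfp36l1 (probe at chr12:81208803-81208862, minus strand) had levels of 6.48 in ALDH-high and 4.13 in ALDH-low cells at ZT0, and of 4.61 in ALDH-high and 6.73 in ALDH-low cells at ZT12 (5.09-fold higher and 4.34-fold lower in ALDH-high cells). The 2 probes of Zfp36l1 did not match in size: the dimmer one (chr12:81210866-81210925) gave 1.44-fold higher and 1.21-fold lower. Zfp36l2 (probe at chr17:84583415-84583474, minus strand) had levels of 6.46 in ALDH-high and 4.54 in ALDH-low cells at ZT0, and of 4.62 in ALDH-high and 6.47 in ALDH-low cells at ZT12 (3.79-fold higher and 3.59-fold lower in ALDH-high cells).

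The ZFP36 proteins recognise AU-rich sequence that contains ATTTA, and some mRNAs of this gene set carry it themselves. Of the 14 probes, 4 hold ATTTA (those of Dusp1, Dusp2, Zfp36 and the brighter of Zfp36l1), against 8.08% of all 56605 probes. Stretches of 30 bases from the 4 probes are shown because they are the part of the transcript that the array read, with ATTTA in capitals. The Zfp36 probe holds 3 copies, of which 2 fall in the stretch. In build mm9 they lie at chr17:26642624-26642653 (Dusp1, minus strand), chr2:127163960-127163989 (Dusp2, plus strand), chr7:29161972-29162001 (Zfp36, minus strand) and chr12:81208803-81208832 (Zfp36l1, minus strand). Exon and UTR positions were not analysed here.
Dusp1: acagttgtatgtttgtttATTTAtgatctg
Dusp2: agttatttgtgttcaactgacATTTAacgc
Zfp36: ATTTAtgacgactttATTTAttgtattaag
Zfp36l1: tttctttgtgtgaattcATTTAaaagaaaa

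The first comparison asked whether feedback gene signal differs with the ALDH activity of the cells. In ALDH-high cells 5 of 9 members measured had at least 2-fold more signal at ZT0 (Dusp1, Dusp5, Zfp36, Zfp36l1 and Zfp36l2), 1 was at least 2-fold lower (Dusp4) and 3 differed by less. Over all 21137 features measured on both ZT0 arrays, 20.0% passed 2-fold upwards and 29.2% downwards. The median of the members was 1.92, against -0.30 for all features. At ZT12, 6 of 9 members were at least 2-fold lower in ALDH-high cells, where Spry2 joined the 5 genes named for ZT0, and 0 were higher. There 17.9% of 19778 features were at least 2-fold lower and 28.9% higher, and the medians were -1.84 for the members and 0.22 for all features. Zfp36 and Dusp1 lay near the end of the distribution at both times: 0.606% and 0.833% of features had a higher difference at ZT0, and 1.03% and 0.789% a lower one at ZT12. The direction of the ALDH difference thus turned round between the times in 7 of 9 members (all but Dusp4 and Dusp6), as it did in 84.8% of 19299 features. Past 2-fold in both, upwards at ZT0 and downwards at ZT12, were 5 of 9 members and 15.9% of features. At least 2-fold lower at both times were 0 members and 0.166% of features. The ZT0 ALDH-high and ZT12 ALDH-low arrays were both above the other arrays in 7 of 9 members and 34.9% of features. The difference between the times was not tested, since each time has 1 array per arm.

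**Figure D2:**
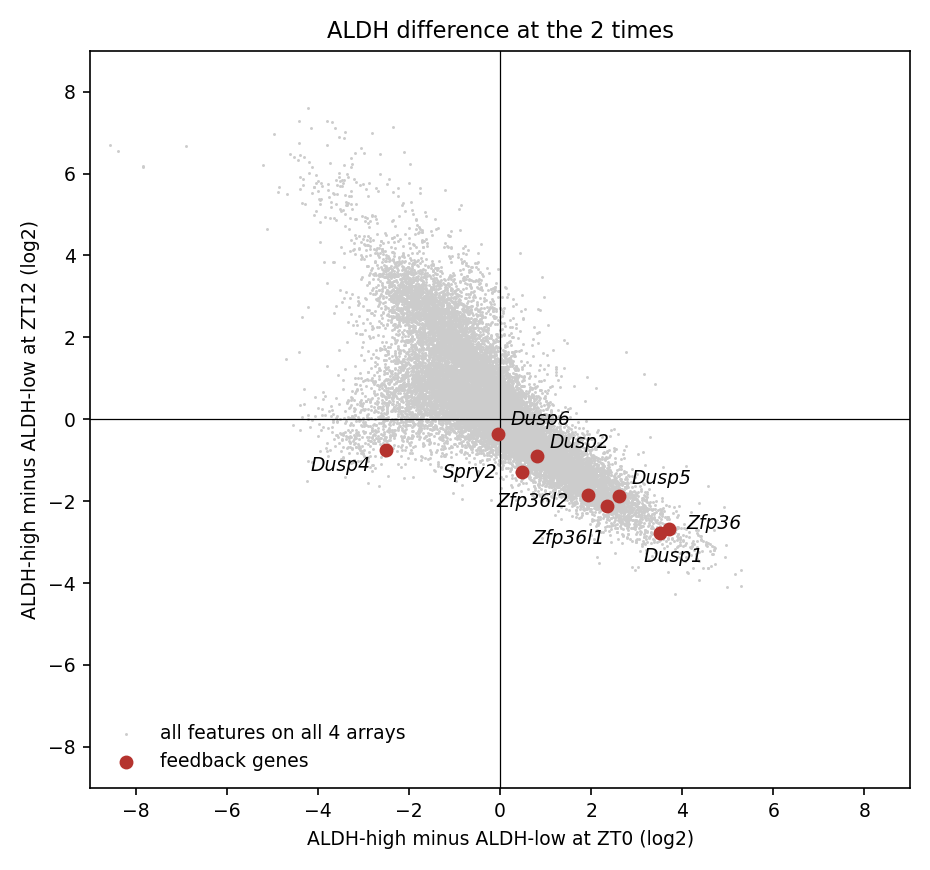
Log2 difference between ALDH-high and ALDH-low cells (high minus low), with ZT0 on the horizontal and ZT12 on the vertical axis, for all 19299 features well above background on every array (grey) and the 9 feedback genes among them (red). The 7 members whose sign turned lie at the lower right, from Spry2 (0.47 and -1.28) to Zfp36 (3.72 and -2.67); Dusp4 (-2.51 and -0.75) lies apart from them and Dusp6 (-0.047 and -0.35) near the centre.

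The second comparison asked how the genes differed between ZT12 and ZT0 within each arm. These differences use the same 4 arrays as the ALDH differences and are not independent of them. In ALDH-high cells, 6 of 9 members (Spry2 and the 5 named for ZT0) were at least 2-fold lower at ZT12 than at ZT0 (against 20.2% of 20333 features) and Dusp4 was at least 2-fold higher (against 31.7%). Of these, Spry2 was under 2-fold with normexp and quantile normalization (-0.87) and with its probes averaged (-0.76). Dusp1 was 7.08-fold lower and Zfp36 9.68-fold lower at ZT12 in this arm, while Dusp4 was 4.14-fold higher. In ALDH-low cells, 6 of 9 were at least 2-fold higher at ZT12 (against 17.5% of 20670 features) and 0 were lower (against 28.5%). There Dusp1 was 11.1-fold, Zfp36 8.63-fold and Zfp36l1 6.05-fold higher at ZT12, and Dusp2 was 2.14-fold higher. Both at least 2-fold lower in ALDH-high and at least 2-fold higher in ALDH-low cells were 5 of 9 members and 16.0% of features. With the 75th percentile scaling, Spry4 was at least 2.58-fold lower at ZT12 in ALDH-low cells. Its processed signals were 18.7 (ZT0 ALDH-low) and 15.6 (ZT12 ALDH-low), near the lowest signals well above background (14.4 and 15.1). That bound rests largely on the 75th percentiles of the 2 arrays (214 and 459). The medians of the members were -1.83 in ALDH-high and 1.93 in ALDH-low cells, against 0.34 and -0.34 for all features.

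Between arrays of the same slide position, the median of the members lay nearer to 0 than in the ALDH and time comparisons. At position 1_2, which sets ZT0 ALDH-high against ZT12 ALDH-low, 8 of 9 members differed by less than 2-fold and Dusp4 was 6.95-fold lower in ZT0 ALDH-high cells. Of all 21062 features there, 10.1% were at least 2-fold higher and 5.55% lower. Dusp1 differed by 0.042, Zfp36l2 by -0.0086 and Zfp36 by 0.61. At position 1_1, which sets ZT12 ALDH-high against ZT0 ALDH-low, all 9 differed by less than 2-fold, with values from -0.65 (Spry2) to 0.69 (Dusp1), while 2.84% of 21151 features were at least 2-fold higher and 1.49% lower. The medians of the members were -0.16 at position 1_2 and 0.19 at position 1_1, against 1.92 and -1.84 for the ALDH differences at ZT0 and ZT12. The arrays of a position differ in arm and in time, and the part of array position in the differences cannot be told apart from that of arm and time.

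**Figure D3:**
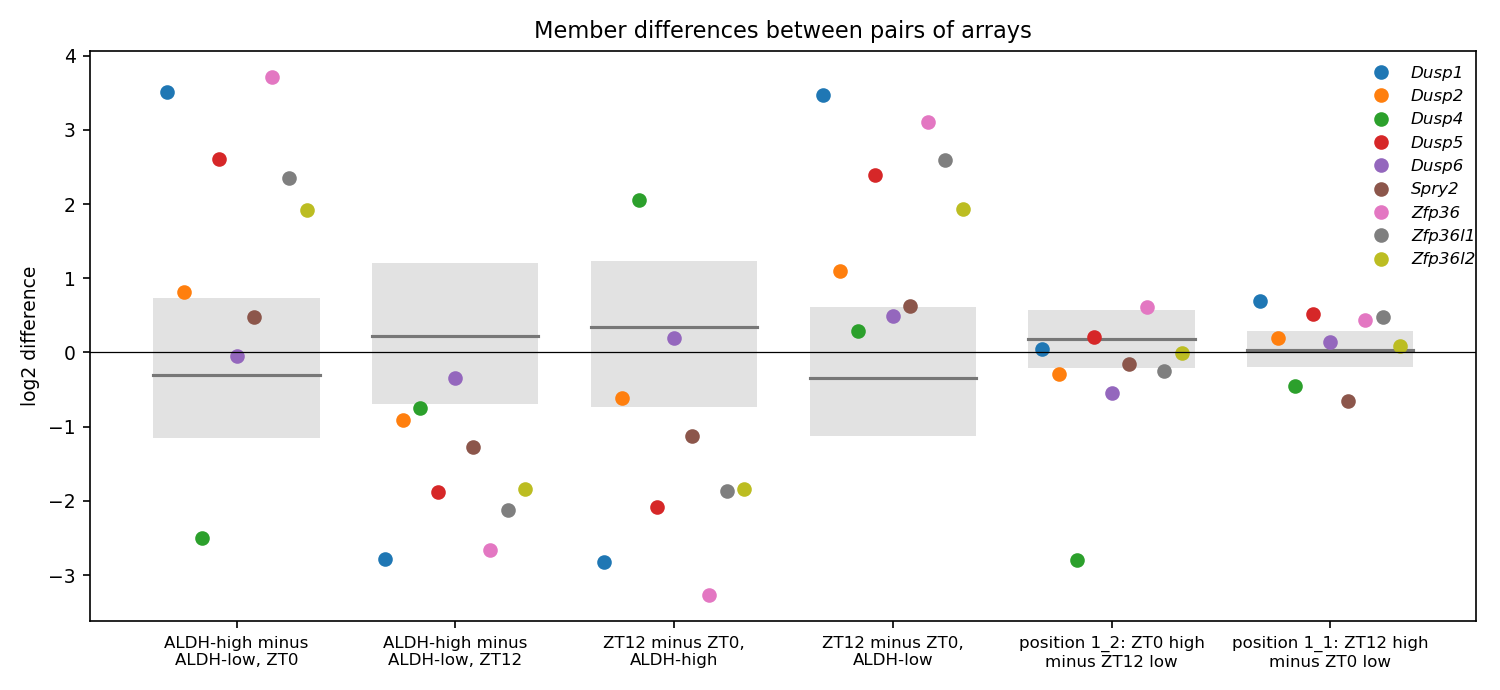
Log2 difference (vertical axis) of the 9 members measured on every array, for the 2 ALDH, the 2 time and the 2 within-position comparisons of single arrays (horizontal axis). Grey bars span the 25th to 75th percentile of all features and the grey line is their median. The members spread from -2.51 to 3.72 at ZT0 and from -0.65 to 0.69 within position 1_1, and Dusp4 alone lies apart within position 1_2 (-2.80).

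No member passed a test across the arrays. In the additive limma fit with ALDH arm and time over 23520 features, 0 members and 0 features were called for ALDH (0% called, adjusted p threshold 0.05), with 7 features at an unadjusted p under 0.05. For time, 0 features were called and 2 had an unadjusted p under 0.05. With array position as a block in place of the other factor, 0 features were again called, while 1915 for ALDH and 362 for time had an unadjusted p under 0.05, and the median standard error was 0.296 for ALDH and 0.425 for time. Each of these fits has 1 residual degree of freedom. In the additive fit it is the difference between the ALDH differences at the 2 times. An ALDH difference that turns round between the times thus enters that fit as noise and is not tested by it. Without the block the standard error was 1.54 for every gene. The member with the largest ALDH coefficient was Dusp4 (-1.63), which was lower in ALDH-high cells at both times. With an array left out, the fit held ALDH arm or time alone, so the 2 factors were partly mixed in it. The ALDH coefficient of Dusp4 lay at -0.60 without the ZT0 ALDH-high array and at -2.65 without the ZT12 ALDH-high array. Without the ZT0 ALDH-high array Zfp36 (-1.11), Dusp1 (-1.05), Spry2 (-0.96), Zfp36l2 (-0.88), Zfp36l1 (-0.82) and Dusp5 (-0.68) were larger in size than Dusp4. The coefficients of Dusp1 (0.37) and Zfp36 (0.52) averaged differences of opposite sign at the 2 times. For time the largest coefficient was again that of Dusp4 (1.17), which was -0.084 without the ZT0 ALDH-high array and 2.42 without the ZT0 ALDH-low array. An exact permutation of 2 against 2 arrays could not give a two-sided p below 0.333.

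Other genes of the same pathways were read from lists. Of the 7 other MAPK phosphatases, 2 were at least 2-fold higher in ALDH-high cells at ZT0 and 3 lower among 6 measured. Dusp9, not well above background on the ZT0 ALDH-high array and so not counted, was at least 5.68-fold lower there than in ALDH-low cells. Dusp16, a phosphatase of JNK and p38, was 7.99-fold higher at ZT0 and 6.76-fold lower at ZT12 in ALDH-high cells, and Dusp10, of the same specificity, had log2 differences of 1.21 and -1.32. Dusp8 ran the other way (-2.02 and 1.94), and Dusp14 gave -2.36 and -0.69. Of the other Sprouty, Spred and receptor feedback genes, 0 were at least 2-fold higher at ZT0 and 4 of 6 were lower, among them Spry1 (-2.74 and -0.57) and Spred1 (-1.80 and -0.091), inhibitors of Ras-ERK signalling. Il17rd (0.67 and -0.33) and Errfi1, a feedback inhibitor of the EGF receptor (0.49 and -1.55), had the highest ZT0 values of that list. The ERK cascade itself had 8 of 15 genes at least 2-fold higher at ZT0 and 0 lower (median 1.24), and at ZT12 0 higher and 9 lower (median -1.20). Braf (2.78 and -2.41), a kinase below Ras, had the highest ZT0 difference, and Hras (-0.21 and 0.22) and Rps6ka3 (-0.18 and 0.20) the lowest. In the p38 and JNK cascade 7 of 14 were higher and 2 lower at ZT0, with Mapk13 (3.504 and -2.52) and Mapk14 (2.44 and -2.07) at one end and the p38 isoforms Mapk12 (-3.48 and -0.52) and Mapk11 (-2.59 and 1.89) at the other.

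The genes downstream split. Of 14 genes of ERK transcriptional output, 7 were at least 2-fold higher at ZT0 and 5 lower (median 1.35), and at ZT12 1 was higher and 8 lower (median -1.53). The immediate early factors Egr1 (4.13 and -3.75) and Junb (3.25 and -2.59) were highest, whereas cyclin D1 (Ccnd1, -3.26 and 0.082) and Myc (-2.70 and 0.84) were lowest. The ETS factor genes Etv1 (-2.33 at ZT0), Etv4 (-2.33) and Etv5 (-1.48), named after their values were seen, were the other lower genes. Of the mRNAs that ZFP36 binds, 8 of 12 measured were at least 2-fold higher at ZT0 and 3 lower (median 2.21), and at ZT12 2 of 14 were higher and 10 lower (median -1.60). They included the kinase gene Plk3 (2.91 and -2.46) and the cytokine gene Il1b (2.90 and -2.02), against Il23a (-2.10 and -1.43) and the chemokine gene Ccl2 (-1.74 and 1.34). Csf2 and Lif were not well above background on the ZT0 ALDH-high array and are not in the ZT0 count. They were at least 3.75-fold (Csf2) and 3.84-fold (Lif) lower in ALDH-high cells at ZT0. The CCR4-NOT deadenylase, which ZFP36 proteins recruit, had 4 of 8 subunit genes at least 2-fold higher and 0 lower at ZT0 (median 0.97) and 0 higher and 3 lower at ZT12 (median -0.92). Cnot1, the scaffold, gave 1.43 and -0.94 and Cnot3 1.36 and -0.89, while Cnot10 (0.32 and -0.27) and Cnot6 (0.46 and -0.77) had the lowest ZT0 differences. The background shares for these counts are those given for the ALDH comparisons (20.0% higher and 29.2% lower at ZT0, 28.9% higher and 17.9% lower at ZT12).

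**Figure D4:**
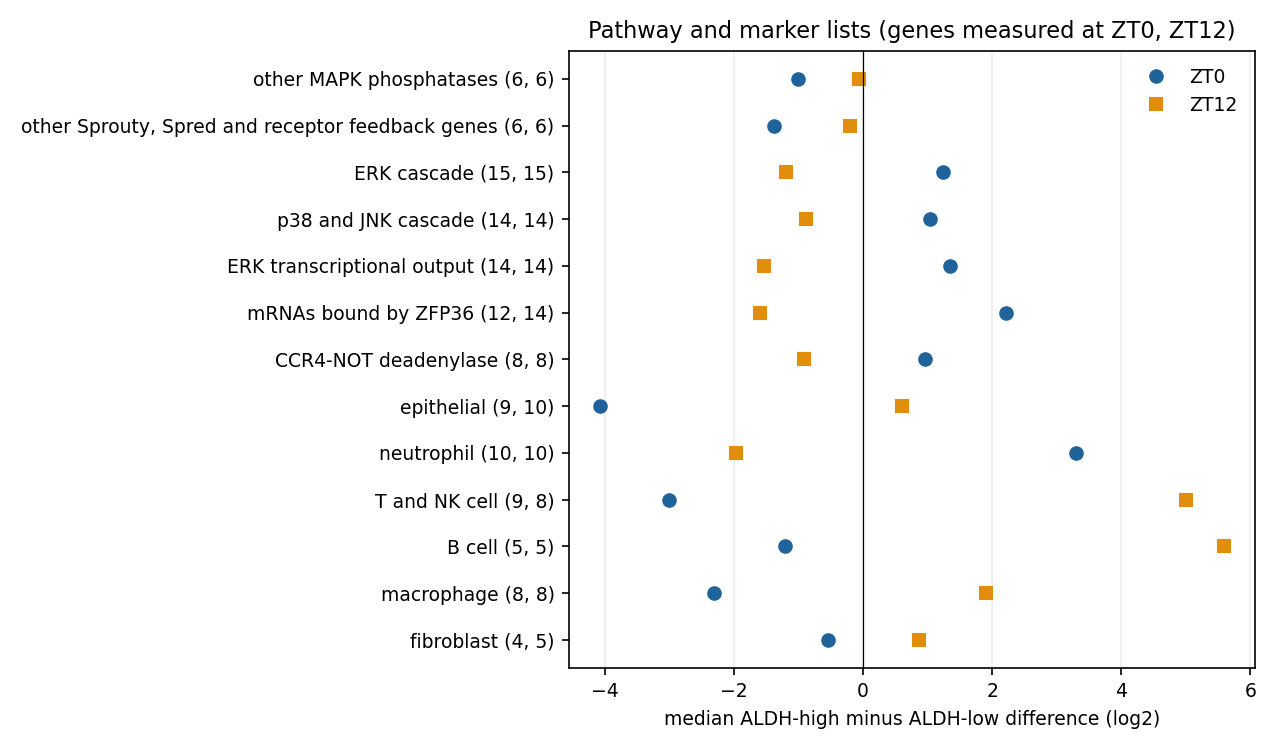
Median log2 difference between ALDH-high and ALDH-low cells, high minus low (horizontal axis) of each pathway and marker list with at least 4 measured genes (vertical axis, numbers of genes measured at ZT0 and ZT12 in brackets), at ZT0 (circles) and ZT12 (squares). The ERK cascade (1.24 and -1.20), the ZFP36-bound mRNAs (2.21 and -1.60) and the neutrophil markers (3.29 and -1.97) have a positive ZT0 and a negative ZT12 median, and the lymphocyte and macrophage markers the reverse.

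Markers of other cell types moved along the same arrays, and their part in the differences of the feedback genes was not tested. Of the 10 neutrophil markers, 7 were at least 2-fold higher in ALDH-high cells at ZT0 and 0 lower, and at ZT12 2 were higher and 6 lower. All 10 were well above background on each array. Ly6g had levels of 4.99 in ALDH-high and 0.025 in ALDH-low cells at ZT0, and of -0.030 in ALDH-high and 3.03 in ALDH-low cells at ZT12. The 2 markers higher at ZT12 were S100a9 (log2 difference 1.27) and Csf3r (1.70). The summed linear level of the list was 3336 in ALDH-high and 2273 in ALDH-low cells at ZT0, and 3089 in ALDH-high and 1901 in ALDH-low cells at ZT12. Such sums follow the brightest probes of a list, here S100a9 and Csf3r among them. At ZT12 the sum ran opposite to the list's median difference (-1.97). Epithelial markers had 9 of 9 measured genes at least 2-fold lower in ALDH-high cells at ZT0, and summed levels of 11.9 in ALDH-high and 195.6 in ALDH-low cells; at ZT12 the sums were 94.3 and 86.1, with 2 of 10 genes higher and 0 lower. Cldn4 was not well above background on the ZT0 ALDH-high array. Dusp4 and the epithelial list thus had their lowest value on the same array.

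Lymphocyte and red cell markers were bright on the position 1_1 arrays. The summed level of T and NK cell markers was 10.4 in ALDH-high and 39.2 in ALDH-low cells at ZT0, and 49.3 in ALDH-high and 7.36 in ALDH-low cells at ZT12, with Ncr1 not well above background on either position 1_2 array. B cell markers summed to 5.12 and 19.2 at ZT0 and to 29.6 and 1.52 at ZT12 (ALDH-high, then ALDH-low). Erythroid markers summed to 2.62 and 605.5 at ZT0 and to 204.3 and 2.89 at ZT12 in the same order, and Epb42 was not well above background on any array. Macrophage markers spanned less (153.4 and 213.3 at ZT0, 262.4 and 147.5 at ZT12), with 5 of 8 lower at ZT0 and 5 of 8 higher at ZT12. Fibroblast markers had 0 of 4 past 2-fold at ZT0 and 1 higher and 1 lower of 5 at ZT12. The 5 endothelial genes summed to between 0.498 and 0.839, and of them Tek and Tie1 were not well above background on any array.

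For each of the 9 members, the genes with the most similar profile were sought among 12243 symbols detected on every array, by Euclidean distance between log2 levels centred on their mean over the 4 arrays. The 2 nearest to Dusp1 were Wfdc18 (distance 0.079) and Cyp4f18 (0.140), and those nearest to Zfp36 were Arap3 (0.057) and Mcemp1 (0.096). Nearest to Dusp5 were the interleukin 4 receptor gene Il4ra (0.063) and Neurl3 (0.069), to Zfp36l1 Ptbp3 (0.083) and Zfp292 (0.093), and to Zfp36l2 Dido1 (0.037) and Rb1cc1 (0.040). Dusp4 had no profile as close, with Mgp (0.204) and the TEAD factor gene Tead3 (0.280) nearest. Dusp2 was closest to Rabep1 (0.041) and Ski (0.052), Dusp6 to Traf6 (0.018) and Dnase1l1 (0.067), and Spry2 to Tmc4 (0.086) and Fam149b (0.087). Between members the closest pairs were Dusp5 with Zfp36l1 (0.326) and Dusp1 with Zfp36 (0.438), and the most distant was Dusp4 with Zfp36 (4.77). With 4 arrays these distances describe the arrays and carry no test.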

How the data were processed

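Total RNA of 4 sorted samples was amplified and labelled with Cy3, per the labels' protocols. Per the file headers, the scanner software was Agilent Feature Extraction 10.7.1.1 with a design file of build mm9, while the submitters' processing notes name version 9.5.1.1; which applies is not known. The processed signal that the authors deposited is a linear intensity from which the software had removed background and spatial trend, 1 array at a time, with no normalization between arrays, per the file headers. The deposited series table also holds intensity values; its 4 columns share a median of 28.3 and each ranks the probes of its own array alike (rank correlation 1), so it is quantile normalized.

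Spots with an outlier mark were dropped where a probe had others. Each member probe has 1 spot. Log2 processed signal minus the array's 75th percentile was used, with probes well above background on at least 2 of 4 arrays and, for each gene, the probe with the highest mean level. Counts of 2-fold differences took features well above background on both arrays. limma 3.58.1 in R 4.3.3 was fitted over 23520 features (Benjamini-Hochberg, threshold 0.05) and tested on simulated data. Python 3.11.15, pandas 2.3.3, numpy 2.4.6 and matplotlib 3.10.9 were used for the rest.

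The members, lists and rules were chosen with earlier results of these data known. Named besides the members were, from each pathway list, the 2 genes with the highest and the 2 with the lowest ZT0 ALDH difference among those detected on every array, the first marker genes of each cell type, and the 2 nearest profiles of each member; some genes that this rule takes are not reported here. Other scalings, background correction, filters, probe choices and arrays left out were tried. Protein sequences were not used here. Promoter coordinates are GRCm38.p6 and probe coordinates mm9, and they were not converted.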

Additional observations from a re-analysis of the deposited data

Results flagged for a closer look

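In 7 of the 9 feedback genes measured on every array, the ALDH difference had opposite signs at the 2 times. The ZT0 difference minus the ZT12 difference was 6.38 for Zfp36, 6.29 for Dusp1, 4.48 for Dusp5, 4.47 for Zfp36l1, 3.77 for Zfp36l2, 1.75 for Spry2 and 1.72 for Dusp2 (log2). Each rests on 1 array per group and was not tested. Opposite signs were found in 84.8% of 19299 features. Of these features, 0.705% had a higher value than Zfp36, 0.757% a higher value than Dusp1, and 22.1% a higher value than Dusp2.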

How the results depend on the processing

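No paired analysis was possible because each group has 1 array and no number is shared between groups by which samples could be paired across ZT12 and ZT0 (both ZT12 titles end in 2, a mark whose meaning is not given, and the ZT0 titles carry none). Of 180 member differences under another scaling, background correction, source table or probe choice, 152 moved by less than 1.5-fold, 28 by more, and 0 of those past 2-fold changed sign. These are not 180 independent checks. Averaging probes cannot move the genes with 1 probe (Dusp1, Dusp2, Dusp6, Zfp36 and Zfp36l2), and the series table is itself quantile normalized. Median scaling moved the median of all features by over 0.1 (to 0.18 for ALDH at ZT0, -0.65 for ALDH at ZT12, -0.19 and 0.48 for time in ALDH-high and ALDH-low cells) and the members with it: their median was -2.72 for ALDH at ZT12 and 2.76 for time in ALDH-low cells. All 9 members were then at least 2-fold lower in ALDH-high than in ALDH-low cells at ZT12, and 6 were at least 2-fold higher at ZT0. For time, 7 were then at least 2-fold lower at ZT12 in ALDH-high cells, and all 9 at least 2-fold higher at ZT12 in ALDH-low cells. Median scaling shifts all features of an array alike, so the members' median relative to that of all features (-2.07 for ALDH at ZT12) could not change. It was -1.53 with quantile normalization, -1.46 with normexp and quantile and -1.54 with the series table. Under median scaling 29.7% of features were higher and 17.6% lower in ALDH-high cells at ZT0, and 15.8% and 40.0% at ZT12. Between the times, 17.8% were higher and 30.8% lower at ZT12 than at ZT0 in ALDH-high cells, and 35.5% and 14.0% in ALDH-low cells. Averaging the probes of each gene, the members' median was -1.20 for ALDH at ZT12 and 1.32 for time in ALDH-low cells, both the value of Zfp36l1, whose second probe varied less. Between arrays of 1 position, a different contrast in which time changes with arm, the members' median was -0.16 (position 1_2) and 0.19 (position 1_1), with members on both sides of 0. Without the background filter, 49.98% of features were at least 2-fold higher and 11.6% lower in ALDH-high cells at ZT12, and 11.6% higher at ZT12 in ALDH-low cells. Dusp2 was under 2-fold for time in ALDH-low cells with quantile normalization (0.60), normexp and quantile (0.61) and the series table (0.61). Spry2 was under it for ALDH at ZT12 (-0.999) and for time in ALDH-high cells (-0.87) with normexp and quantile, and for the last also with probes averaged (-0.76). Each of these counts of 6 members then became 5.

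The additive fits called 0 features for ALDH under every alternative run, array position as a block included, and between 0 and 1 for time when an array was left out; the 1 call came without the ZT12 ALDH-high array (Gzmc, named after its value was seen, limma adjusted p = 0.0439) and was no member. The members' median ALDH coefficient lay between -0.93 and 1.006 when an array was left out. Signal over background limits Spry4 and the second Spry2 probe to bounds.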
